A study of Mus musculus with 6 samples.

Results

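The genes described here are 34 genes of glycolysis and of the control of pyruvate, chosen by gene symbol with a rule that uses no measured value. Earlier results of these data were known when these genes, and the lists of neighbouring genes set beside them, were chosen. They cover glucose uptake, each enzymatic step from glucose to pyruvate, the enzymes that set fructose 2,6-bisphosphate, lactate formation and export, the pyruvate dehydrogenase kinases, the pyruvate dehydrogenase subunit Pdha1 and the transcription factor Hif1a. The 34 symbols matched 35 of the 53801 gene rows in the count tables, because the symbol Aldoa is carried by 2 Ensembl genes. RNA was sequenced from MC3T3-E1, an established line of mouse calvarial pre-osteoblasts, in 3 scramble libraries and 3 Hdac4-knockdown libraries. Both groups carried a lentivirus that encodes a fluorescent reporter and puromycin resistance, and both were selected with 5 µg/ml puromycin for 7 days. The Hdac4-knockdown cells expressed a short hairpin against Hdac4, a class IIa histone deacetylase, and the scramble cells a hairpin with no intended target. Each group is therefore a selected cell pool with a single hairpin. The study calls the 3 samples of a group biological replicates, but neither it nor the labels say that they came from separate infections. The p-values therefore measure the spread between these samples, which may be technical. The hairpin sequences are shown because the whole comparison rests on them. The first is the only knockdown hairpin that the study's account of the sequencing names, while the labels say only Hdac4-shRNA.
Hdac4-shRNA3: gcatgaggcacagttgcatga
scrambled: ttctccgaacgtgtcacgt

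Between 29096544 and 31651826 reads were counted on genes in each library. Hdac4 itself was counted 1243, 1204 and 1136 times with the scramble hairpin and 950, 927 and 887 times with the Hdac4 hairpin, so 73.6% of its scramble level remained. All 3 knockdown libraries were below all 3 scramble libraries. The stretch of its exons shared with the opposite-strand gene Gm26720 covers 3536 of 15813 bases. The 2 groups were far apart across the transcriptome, and 75.1% of the 14531 genes tested were called. Of 10 pre-osteoblast markers, Alpl, a defining gene of the lineage, was at 3 counts or fewer in every library. Sp7, Ibsp and Bglap were at 7 counts or fewer in each scramble library, while Runx2 and Col1a1 were counted in all libraries. The pre-osteoblast markers summed to 5704 to 5749 CPM (counts scaled to the library size after TMM adjustment) in scramble libraries and 23678 to 24564 CPM in knockdown libraries. Of the 7 tested markers, 6 rose, and most of the rise in the sum was in Col1a1 (338 to 11015 CPM) and Col1a2 (1213 to 8572 CPM). Postn went from 11.9 to 357 CPM. Runx2 rose by 0.19 on the log2 scale, with overlapping groups, and Spp1 fell from 3154 to 2046 CPM. All 6 markers of skeletal muscle (Myod1, Myog, Ckm, Acta1, Myh3 and Des) fell, and their sum was 887 to 926 CPM in scramble libraries and 126 to 147 CPM in knockdown libraries. In such bulk samples, fewer cells of a type and less RNA per cell cannot be told apart.

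Glycolysis splits glucose into pyruvate in the cytosol and yields ATP without oxygen. Its flux is held mainly at glucose entry, at hexokinase, at phosphofructokinase and at pyruvate kinase, and most steps can be carried out by more than one isoenzyme, each with its own tissue pattern. Pyruvate is either reduced to lactate and exported with a proton, or enters mitochondria and is oxidized by pyruvate dehydrogenase, which the PDK kinases switch off. Osteoblasts are known for a high use of glucose with lactate release, and the hypoxia-inducible factor HIF-1 is known to drive many of these genes by binding a short core written ACGTG or GCGTG.

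The promoters of 5 members that fell and of 1 that rose are printed, to show members with large differences at glucose uptake, at enolase, at lactate formation and export, and at pyruvate dehydrogenase control. Each is the 250 bases before the start of the RefSeq transcript (build GRCm38.p6, 5′ to 3′ on the strand of the gene). Where RefSeq gives several starts, the most upstream one was taken. Capitals mark ACGTG or GCGTG on either strand, so the same core read from the opposite strand appears as CACGT or CACGC.
Slc2a1 (chr4:119108495-119108744, plus strand): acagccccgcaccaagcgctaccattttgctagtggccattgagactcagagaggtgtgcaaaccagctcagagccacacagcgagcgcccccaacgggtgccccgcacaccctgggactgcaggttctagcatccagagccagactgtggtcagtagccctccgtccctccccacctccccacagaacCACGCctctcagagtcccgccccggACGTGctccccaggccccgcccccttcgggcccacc
Eno3 (chr11:70656926-70657175, plus strand): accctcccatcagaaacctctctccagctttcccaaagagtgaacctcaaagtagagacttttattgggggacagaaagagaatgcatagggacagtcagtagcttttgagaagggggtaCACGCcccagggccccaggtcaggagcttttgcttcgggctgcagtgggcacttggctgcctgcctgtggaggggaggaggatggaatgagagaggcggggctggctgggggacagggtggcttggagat
Slc16a3 (chr11:120948817-120949066, plus strand): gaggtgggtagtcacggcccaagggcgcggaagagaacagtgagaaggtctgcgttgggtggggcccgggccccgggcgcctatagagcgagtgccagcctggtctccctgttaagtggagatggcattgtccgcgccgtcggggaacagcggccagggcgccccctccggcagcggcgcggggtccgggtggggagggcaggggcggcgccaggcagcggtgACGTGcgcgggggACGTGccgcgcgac
Ldha (chr7:46845554-46845803, plus strand): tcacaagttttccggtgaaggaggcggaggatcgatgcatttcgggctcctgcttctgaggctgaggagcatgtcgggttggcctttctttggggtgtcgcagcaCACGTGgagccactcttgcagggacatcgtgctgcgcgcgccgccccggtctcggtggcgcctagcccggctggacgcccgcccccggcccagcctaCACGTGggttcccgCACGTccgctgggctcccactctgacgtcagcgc
Ldhb (chr6:142507958-142508207, minus strand): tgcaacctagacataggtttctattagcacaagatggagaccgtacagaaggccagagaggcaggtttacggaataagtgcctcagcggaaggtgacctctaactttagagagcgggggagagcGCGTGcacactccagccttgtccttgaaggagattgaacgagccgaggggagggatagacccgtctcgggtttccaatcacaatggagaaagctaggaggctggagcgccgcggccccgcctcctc
Pdk1 (chr2:71872974-71873223, plus strand): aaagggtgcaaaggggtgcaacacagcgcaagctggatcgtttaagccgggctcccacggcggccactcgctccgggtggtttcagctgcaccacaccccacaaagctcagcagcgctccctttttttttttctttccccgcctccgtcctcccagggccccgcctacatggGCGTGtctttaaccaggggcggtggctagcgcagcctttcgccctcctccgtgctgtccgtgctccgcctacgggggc

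Most of these genes were lower after Hdac4 knockdown. Of the 34 members, 32 passed the filter on low counts and were tested. By edgeR's quasi-likelihood test with Benjamini-Hochberg adjustment over all 14531 genes, 21 fell and 7 rose at an adjusted p below 0.05 and a log2 fold change beyond 0.05. Over all genes tested, 37.1% were called lower and 38.0% higher. Slc2a3 and Slc2a4 were not tested, and Aldoc, Gapdh, Pdk4 and Pdha1 were tested and not called. The 7 members that rose were Pfkm, Pfkfb2, Pfkfb3, Pgam2, Ldhb, Pdk2 and Pdk3. With the fold change threshold raised to 1 on the log2 scale, 10 members fell (10.6% of all genes tested did) and 2 rose (16.5% of all genes). The median log2 fold change of the tested members was -0.65, and that of all genes tested was 0.01. For 30 of the 32 tested members the scramble and knockdown libraries occupied separate ranges, where 76.8% of all genes tested showed no overlap.

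Reads on the 34 members made up 1.30%, 1.32% and 1.33% of the counts on genes in the scramble libraries. In the Hdac4-knockdown libraries they made up 0.865%, 0.928% and 0.892%. The share was thus lower in each knockdown library than in each scramble library, and the summed level went from 13232 to 13611 CPM down to 8481 to 9113 CPM.

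**Figure D1:**
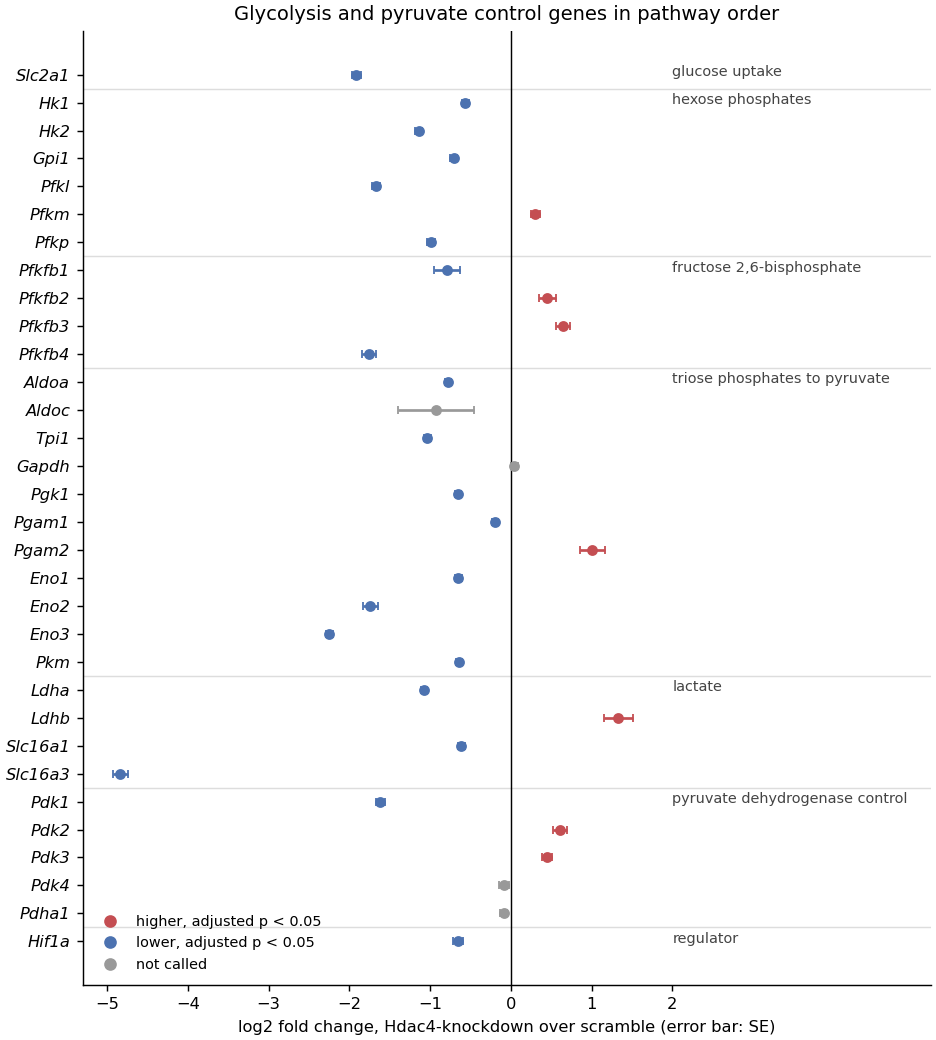
Log2 fold change (Hdac4 knockdown over scramble) of the 32 tested members, grouped by role, with bars of 1 SE from edgeR's quasi-likelihood fit of 3 against 3 libraries; colours mark genes called lower, called higher and not called. Slc16a3 lies farthest to the left at -4.84, and Ldhb, at 1.33, is the member with the highest value.

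The mRNA of the main glucose transporter fell to 26.6% of its scramble level. Slc2a1 (ENSMUSG00000028645, chr4:119108711-119137983, plus strand), which encodes the widely expressed glucose transporter GLUT1, was at 200, 209 and 217 CPM in the scramble libraries and 59.1, 52.2 and 54.9 CPM in the knockdown libraries. The groups were far apart, with a log2 fold change of -1.91 (adjusted p = 2.13e-17, SE 0.0511). Slc2a3, the high-affinity transporter of neurons, was counted 1 to 4 times per library, and Slc2a4, the insulin-responsive transporter of muscle and fat, 0 to 5 times. GLUT1 therefore made up 99.9% of the summed TPM (counts per exon length, scaled to the same sum in each library) of the 3 transporters in both groups. Transporter genes outside the members are not in this sum. Of these, Slc2a10 had a mean of 1.23 TPM in scramble and 13.4 TPM in knockdown libraries, where Slc2a1 had 179 and 51.4 TPM. Slc2a8 was at 10.1 and 15.2 TPM, and Slc2a6 at 1.01 and 10.7 TPM.

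Both hexokinases, which trap glucose as glucose 6-phosphate, fell. Hk2 (ENSMUSG00000000628, chr6:82725025-82774454, minus strand), the inducible isoenzyme, was at 131, 136 and 138 CPM in the scramble libraries and 61.5, 60.7 and 60.9 CPM in the knockdown libraries (log2 fold change -1.14, SE 0.0444, adjusted p = 8.3e-15). Hk1, the constitutive isoenzyme, was at 452, 473 and 489 CPM against 311, 335 and 311 CPM. Its log2 fold change was -0.56 (SE 0.0428, adjusted p = 3.84e-10). The drop was the smaller one for Hk1, and its share of the summed hexokinase TPM was 70.8% to 71.3% in scramble libraries and 78.0% to 79.5% in knockdown libraries. Gpi1, which interconverts the glucose and fructose 6-phosphates, fell from 354 ± 9.99 CPM (SD, n = 3) to 217 ± 12.1 CPM (SD, n = 3).

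Phosphofructokinase, the committed step, has 3 genes that did not move together. Pfkl (ENSMUSG00000020277, chr10:77986947-78010083, minus strand), the liver-type subunit, was at 288, 301 and 301 CPM in the scramble libraries and 88.9, 100 and 89.3 CPM in the knockdown libraries. This was a log2 fold change of -1.67 (adjusted p = 8.64e-17, SE 0.0488). Pfkp, the platelet-type subunit, was at 103, 102 and 107 CPM against 52.1, 54.9 and 49.3 CPM, a log2 fold change of -0.99. Pfkm, the muscle-type subunit, instead rose by 0.30 on the log2 scale (SE 0.0575, adjusted p = 8.93e-05), from 50.4, 51.2 and 47.0 CPM to 56.5, 63.3 and 63.8 CPM. Per exon length, Pfkl held 65.5%, 66.3% and 67.2% of phosphofructokinase transcripts in the scramble libraries but 39.0%, 39.5% and 37.0% in the knockdown libraries. Pfkm held 22.9%, 22.6% and 21% and then 49.6%, 49.7% and 52.8%. The muscle-type subunit thus passed the liver-type one as the leading transcript in each of the 3 knockdown libraries, whereas the share of Pfkp stayed between 10.2% and 11.9% in all 6 libraries. This order rests on the exon lengths, since Pfkl had more CPM than Pfkm in each library before division by length.

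The bifunctional PFKFB enzymes make and degrade fructose 2,6-bisphosphate, the activator of phosphofructokinase. Of these 4 genes, 2 fell and 2 rose. Pfkfb4 (ENSMUSG00000025648, chr9:108991778-109032228, plus strand) was at 21.7, 21.2 and 20.2 CPM in the scramble libraries and 5.98, 6.52 and 6.25 CPM in the knockdown libraries, a log2 fold change of -1.75 (adjusted p = 4.38e-13, SE 0.087). Pfkfb3, the isoenzyme with the strongest kinase activity over phosphatase activity, rose from 12.3, 11.5 and 11.3 CPM to 17.3, 17.6 and 20.1 CPM. Its log2 fold change was 0.64 (SE 0.0857, adjusted p = 1.36e-06), and the groups did not overlap. Pfkfb2, the heart isoenzyme, rose by 0.45 on the log2 scale, and Pfkfb1, the liver isoenzyme, fell by 0.79 from a level of 4.51 ± 0.386 CPM (SD, n = 3). Within the family, the mean TPM share of Pfkfb4 went from 54.2% to 22.5%, and that of Pfkfb3 from 19.4% to 42.5%. Of the 7254 exon bases of Pfkfb2, 1262 also belong to Gm29427, so the value of Pfkfb2 is less certain. Other members share shorter stretches with other genes, among them Pkm (767 of 5001 bases), Gpi1 (741 of 6452), Pdha1 (603 of 3734) and Pfkm (341 of 3340).

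**Figure D2:**
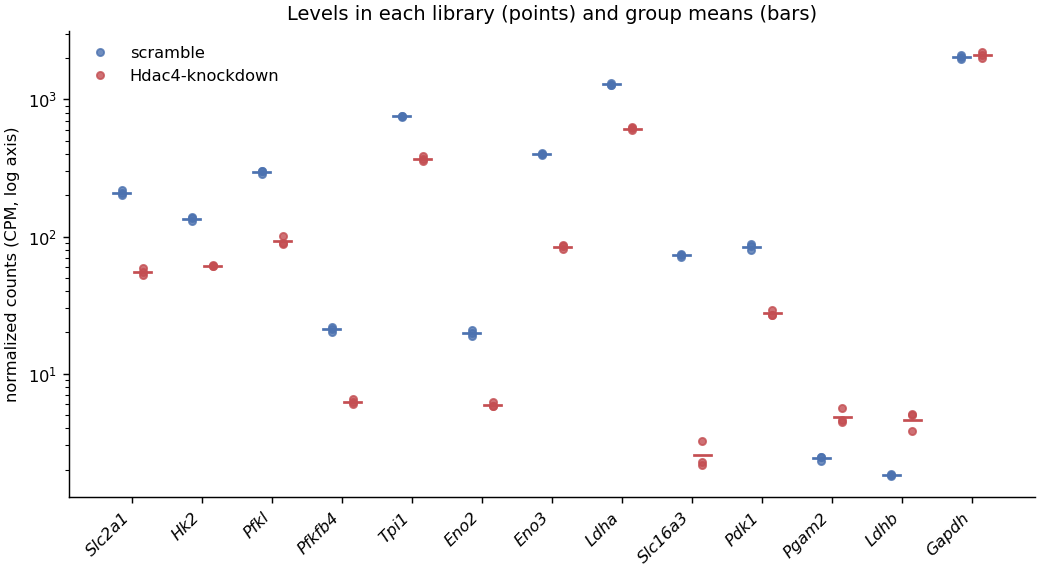
CPM in each of the 6 libraries (points, log axis; short lines mark the group means) for the members with a log2 fold change beyond 1 and for Gapdh, with scramble and Hdac4-knockdown libraries in different colours. The 3 knockdown libraries of Slc16a3 sit between 2.16 and 3.23 CPM, below scramble libraries at 70.8 to 75.1 CPM, while the Gapdh libraries of both groups overlap.

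Aldolase and triose phosphate isomerase, which produce and interconvert the triose phosphates, both fell. Tpi1 (ENSMUSG00000023456, chr6:124810586-124814296, minus strand) was at 745, 756 and 759 CPM in the scramble libraries and 352, 387 and 365 CPM in the knockdown libraries, a log2 fold change of -1.03 (adjusted p = 9.1e-15, SE 0.0403). Aldoa fell from 799 ± 1.11 CPM (SD, n = 3) to 466 ± 16.5 CPM (SD, n = 3). The second Ensembl gene with the Aldoa symbol had 38 to 67 counts per library and was not called (log2 fold change 0.28, SE 0.228, adjusted p = 0.283). Aldoc, the brain aldolase, stayed below 1 CPM in all libraries, and its groups overlapped (adjusted p = 0.0821).

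Gapdh, the dehydrogenase that oxidizes glyceraldehyde 3-phosphate and a common reference gene, stood apart from its neighbours in the pathway. It was at 1955, 2104 and 2041 CPM in the scramble libraries and 2011, 2196 and 2090 CPM in the knockdown libraries. The groups overlapped, and the log2 fold change was 0.05 (SE 0.0398, adjusted p = 0.305). With library size alone as the scaling, it was 0.10 and called higher (adjusted p = 0.0226). The value also depends on whether the reads counted on near-identical copies of Gapdh in the genome are added to it. Of the stretches of 100 bases in Gapdh transcripts, 20.9% occur unchanged in transcripts of other genes. The pseudogene Gm13394 (chr2:28933610-28934609, minus strand) was counted 18439, 18329 and 17097 times with the scramble hairpin and 2271, 2331 and 2256 times with the Hdac4 hairpin (log2 fold change -3.04, SE 0.0409, adjusted p = 6.79e-22). All counted copies together took 22.6% to 23.7% of the reads on Gapdh and its copies in the scramble libraries, but 3.42% to 3.71% in the knockdown libraries. With the reads of the copies added to Gapdh, its log2 fold change was -0.28 (SE 0.0385, adjusted p = 2.08e-06), so the sign turned and the gene was called lower. What moved the copies was not tested.

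The remaining steps to pyruvate were lower, with the exception of Pgam2. Pgk1, the first ATP-yielding kinase, fell from 1282 ± 13.8 CPM (SD, n = 3) to 817 ± 26.9 CPM (SD, n = 3). Of its 100-base stretches, 51.7% occur in other genes, but the counted copies took only 0.0386% to 0.0862% of the reads on Pgk1 and its copies. With or without these reads, the log2 fold change of Pgk1 was -0.65. Pgam1, the mutase that moves the phosphate group, fell by 0.19 on the log2 scale (SE 0.0391, adjusted p = 0.000179), the smallest called fall among the members. Pgam2 (ENSMUSG00000020475, chr11:5801640-5803733, minus strand), its muscle counterpart, was at 2.45, 2.47 and 2.32 CPM in the scramble libraries and rose to 4.43, 5.59 and 4.58 CPM in the knockdown libraries. Its log2 fold change was 1.01 (SE 0.16, adjusted p = 1.17e-05), and it still made up only 3.38% to 4.04% of the mutase TPM in knockdown libraries. Pkm, which encodes the pyruvate kinase of most tissues, was at 2421, 2398 and 2504 CPM against 1512, 1629 and 1545 CPM. This was a log2 fold change of -0.64 (adjusted p = 5.82e-12, SE 0.0375), and counts per gene do not separate its M1 and M2 splice forms.

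The enolases, which form phosphoenolpyruvate, all fell, but to different extents. Eno3 (ENSMUSG00000060600, chr11:70657202-70662513, plus strand), the muscle enolase, was at 401, 406 and 393 CPM in the scramble libraries and 80.7, 85.1 and 87.0 CPM in the knockdown libraries. With a log2 fold change of -2.25 (adjusted p = 1.08e-19, SE 0.043), it retained 21.1% of its scramble level. Eno2 (ENSMUSG00000004267, chr6:124760053-124769673, minus strand), the neuronal enolase, was at 19.9, 18.8 and 20.9 CPM against 5.82, 6.21 and 5.81 CPM (log2 fold change -1.74, SE 0.0899, adjusted p = 8.34e-13). Eno1, the ubiquitous enolase, fell from 1637 ± 31.8 CPM (SD, n = 3) to 1044 ± 57.1 CPM (SD, n = 3), a log2 fold change of -0.65. Per exon length, Eno3 made up 42.0% to 43.3% of enolase transcripts in the scramble libraries and 19.2% to 20.4% in the knockdown libraries. The share of Eno1 was 55.9% to 57.2% and then 79.1% to 80.3%. These shares rest on the exon lengths, which are 5379 bases for Eno1 and 1739 bases for Eno3. Without division by length, the shift towards Eno1 had the same direction but was smaller. Eno1 also has copies, Eno1b and Gm4735, which took 22.7% to 23.4% of the reads on Eno1 and its copies in scramble libraries and 7.44% to 7.78% in knockdown libraries. With these reads added, the log2 fold change of Eno1 was -0.91.

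**Figure D3:**
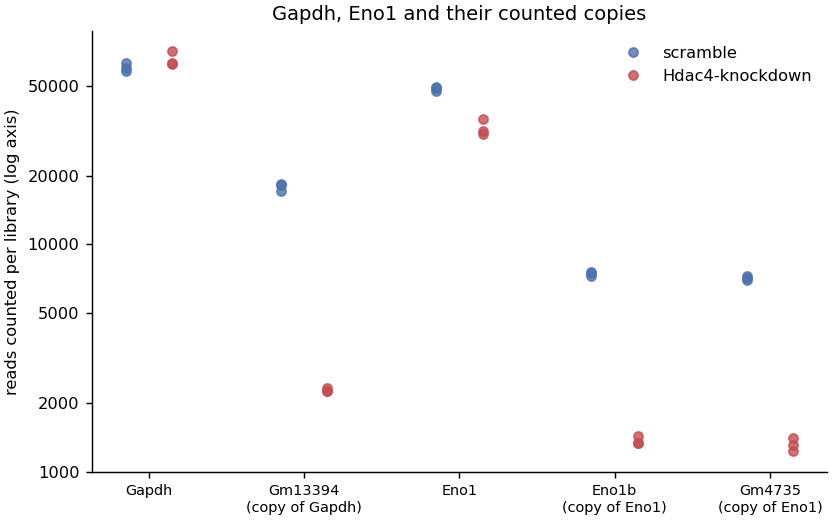
Read counts (log axis) on Gapdh, on its copy Gm13394, on Eno1 and on its copies Eno1b and Gm4735 in each of the 3 scramble and 3 Hdac4-knockdown libraries (points). The counts on Gm13394, Eno1b and Gm4735 are lower in every knockdown library, while the Gapdh points of the groups overlap.

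Members that are named for muscle moved in different directions. Eno3 fell together with the 6 muscle markers, of which Des fell from 737 ± 18.5 CPM (SD, n = 3) to 102 ± 8.39 CPM (SD, n = 3) and Myod1 from 67.9 ± 3.62 CPM to 8.96 ± 0.835 CPM. Pfkm and Pgam2, which are also named for muscle, rose, and Slc2a4 stayed at 0 to 5 counts. Whether the muscle markers have a part in the level of Eno3 was not tested.

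At the exit of the pathway, Slc16a3 had the largest difference of all members. Slc16a3 (ENSMUSG00000025161, chr11:120948480-120960868, plus strand) encodes MCT4, the proton-coupled transporter by which strongly glycolytic cells export lactate. It was counted 2162, 2198 and 2142 times with the scramble hairpin and 100, 73 and 65 times with the Hdac4 hairpin, that is 70.8, 73.4 and 75.1 CPM against 3.23, 2.27 and 2.16 CPM. Its level was 28.6-fold lower after Hdac4 knockdown, with a log2 fold change of -4.84 (adjusted p = 1.5e-19, SE 0.0945). Slc16a1, which encodes the broadly expressed transporter MCT1, was at 179, 176 and 181 CPM against 117, 115 and 119 CPM. That fall was 0.61 on the log2 scale (SE 0.041), and MCT1 went from 74.2% to 75.3% of the summed TPM of both transporters in scramble libraries to 97.8% to 98.5% in knockdown libraries.

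The lactate dehydrogenase genes moved in opposite directions. Ldha (ENSMUSG00000063229, chr7:46841475-46855627, plus strand), whose subunit favours lactate formation, was at 1278, 1271 and 1308 CPM in the scramble libraries and 595, 625 and 618 CPM in the knockdown libraries. The log2 fold change was -1.07 (SE 0.0366, adjusted p = 1.09e-15). Ldhb (ENSMUSG00000030246, chr6:142490249-142507957, minus strand), whose subunit favours the return to pyruvate, was at 1.83, 1.87 and 1.79 CPM and rose to 3.81, 4.96 and 5.08 CPM, a log2 fold change of 1.33 (adjusted p = 1.12e-06, SE 0.175). Ldhb nevertheless remained a minor transcript, with 0.288% to 0.309% of the summed TPM in scramble libraries and 1.33% to 1.71% in knockdown libraries.

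**Figure D4:**
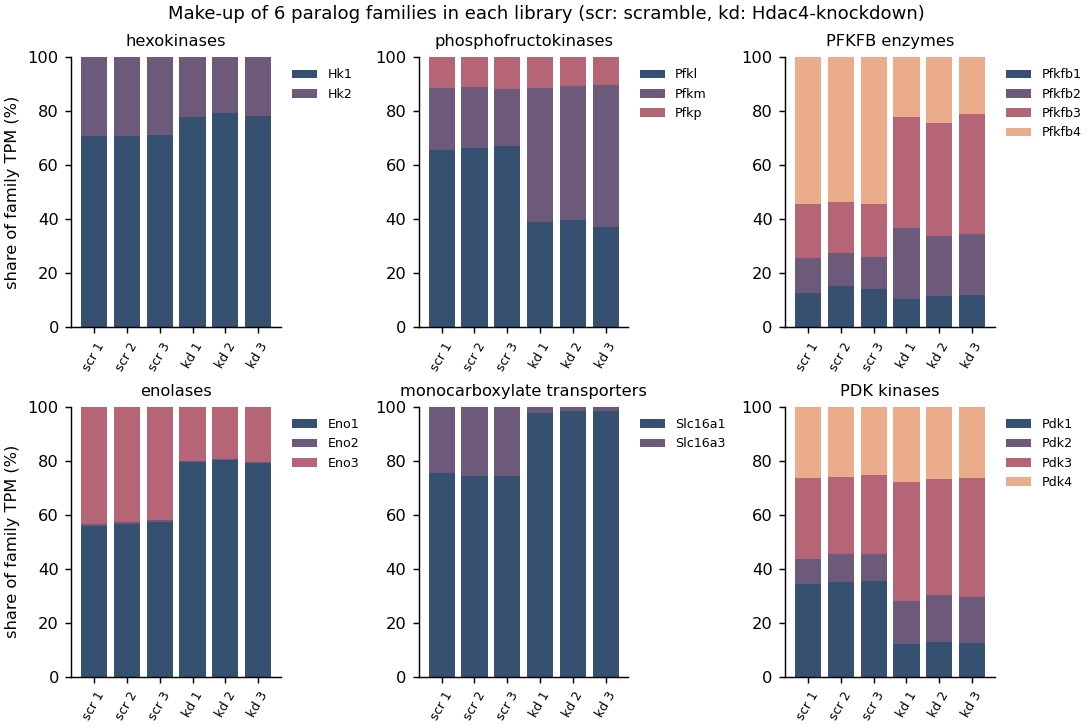
Percentage of the summed TPM (vertical axis) held by each paralog in each of the 6 libraries (stacked bars), for 6 families. The bars show Pfkm passing Pfkl, Pfkfb3 passing Pfkfb4, and Slc16a3 falling from 24.7% to 25.8% down to 1.48% to 2.25%.

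The PDK kinases, which inactivate pyruvate dehydrogenase, were split as well. Pdk1 (ENSMUSG00000006494, chr2:71873224-71903858, plus strand), a known HIF-1 target, was at 79.8, 85.5 and 88.0 CPM in the scramble libraries and 26.7, 29.1 and 26.7 CPM in the knockdown libraries (log2 fold change -1.62, SE 0.057, adjusted p = 1.77e-15). Pdk2 rose from 9.10, 10.3 and 10.2 CPM to 14.0, 15.8 and 15.3 CPM, and Pdk3 from 22.9, 23.0 and 23.6 CPM to 32.0, 31.7 and 31.4 CPM. Pdk4, the isoenzyme induced by fasting, was at 28.4 ± 0.446 CPM (SD, n = 3) and 26.8 ± 0.836 CPM (SD, n = 3) and was not called (log2 fold change -0.08, SE 0.0615, adjusted p = 0.222). The mean TPM share of Pdk1 in the family went from 34.9% to 12.5% and that of Pdk3 from 29.1% to 43.7%. Pdk1 was the leading family transcript per exon length in each scramble library, and Pdk3 in each knockdown library. Pdha1, the catalytic subunit that these kinases phosphorylate, was at 177 ± 4.27 CPM (SD, n = 3) and 167 ± 6.43 CPM (SD, n = 3), a log2 fold change of -0.09 (adjusted p = 0.0755, SE 0.0426).

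The share of the first-named paralog was compared between groups for 10 families with a two-sided exact permutation test over the 6 libraries. In 8 families (Hk1, Pfkl, Pfkfb1, Pgam1, Eno1, Ldha, Slc16a1 and Pdk1) the groups did not overlap, at an exact p of 0.1, the smallest value that 3 against 3 libraries allow, and at 0.125 after Benjamini-Hochberg adjustment over the families. None of these shares can therefore pass a threshold of 0.05 by this test. The shares of Slc2a1 (exact permutation p = 0.4) and Aldoa (exact permutation p = 0.7) overlapped and were at 99.9% in both groups.

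Hif1a, which encodes the oxygen-regulated subunit of HIF-1, was itself lower. It was at 204, 190 and 211 CPM in the scramble libraries and 139, 111 and 134 CPM in the knockdown libraries. The log2 fold change was -0.66 (SE 0.0639, adjusted p = 1.67e-08), and the groups did not overlap. HIF-1 is controlled mainly through the stability of its protein, which was not measured here. Of 8 tested genes of the HIF system outside the members, 4 rose and 2 fell, and their median log2 fold change was 0.15. Over all genes tested, 38.0% were called higher and 37.1% lower. Egln3, the prolyl hydroxylase that is itself induced by HIF, fell from 97.1 ± 2.8 CPM (SD, n = 3) to 11.1 ± 0.646 CPM (SD, n = 3), and Arnt2, an alternative partner of HIF-alpha subunits, rose by 1.04 on the log2 scale. A list of 14 HIF targets outside glycolysis held 12 genes that fell and 1 that rose, and its median log2 fold change was -0.73. Ndrg1 showed the largest fall in this list among genes with a mean of at least 100 counts, from 81.9 ± 3.78 CPM (SD, n = 3) to 26.1 ± 0.657 CPM (SD, n = 3). The single gene that rose was Car9, the membrane carbonic anhydrase, which went from 1.03 ± 0.16 CPM (SD, n = 3) to 2.10 ± 0.353 CPM (SD, n = 3).

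RefSeq promoter windows (250 bases before to 50 after a transcript start, GRCm38.p6) were found for 32 of the 34 members, all but Slc2a3 and Slc2a4, and numbered 51 in all. ACGTG, read on both strands, was in 22 of these 51 windows (43.1%), in 19.6% of the 32851 windows of all genes and in 25.1% of the 13250 windows of tested genes. GCGTG was in 27 member windows (52.9%), in 32.4% of all windows and in 49.4% of the windows of tested genes. The longer CACGTG, the E-box read by Myc and related factors, contains ACGTG on both strands and was in 7 member windows (13.7%) against 7.15% of all windows and 9.65% of the windows of tested genes. Among the printed promoters, Slc16a3 has ACGTG in 2 places within 27 bases of its start, and Ldha has CACGTG in 2 places. Of the members that rose, Pfkm, Pfkfb2, Pfkfb3, Ldhb, Pdk2 and Pdk3 also carry a core, and so does Gapdh, which was not called. Members of either direction thus have matches. Gpi1, Tpi1 and Eno2, which fell, and Pgam2, which rose, have neither core in their windows. A match is only a stretch of letters, and binding was not measured.

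The neighbouring pathways give the context of these values. Their counts stand beside the 38.0% called higher and 37.1% called lower over all genes tested. Of 10 tested further genes of glycolysis and pyruvate handling, 6 rose and 2 fell, and their median log2 fold change was 0.36. Among genes with a mean of at least 100 counts, the largest rise was in Slc2a10, which encodes the transporter GLUT10, from 1.47 ± 0.223 CPM (SD, n = 3) to 14.8 ± 1.52 CPM (SD, n = 3), opposite to Slc2a1. The largest fall among them was in Pgm1, a phosphoglucomutase that links glycogen to glucose 6-phosphate, at -1.20. Among 10 genes of pyruvate entry into mitochondria, 2 rose and 6 fell. Pcx, the pyruvate carboxylase that makes oxaloacetate, rose from 14.0 ± 0.799 CPM (SD, n = 3) to 41.1 ± 0.206 CPM (SD, n = 3), whereas Pdp1, the phosphatase that reverses the action of the PDK kinases, fell by 0.77 on the log2 scale.

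Of 16 genes of the tricarboxylic acid cycle, 15 fell and 1 rose, but by less than most glycolytic members, with a median on the log2 scale of -0.22 against -0.65. Ogdh, a subunit of the 2-oxoglutarate dehydrogenase, fell by 1.11, and Suclg2, a subunit of succinyl-CoA ligase, was the one that rose, by 0.40. The pentose phosphate pathway, which branches off at glucose 6-phosphate, had 3 of 7 genes higher and 1 lower. Its extremes were Taldo1, the transaldolase, with a log2 fold change of 0.83, and Rpia, the ribose 5-phosphate isomerase, with -0.33. In a list of other regulators of glycolysis, 8 of 16 tested genes rose and 5 fell. Of all genes tested, 38.0% were called higher and 37.1% lower. Foxo3, a forkhead factor restrained by insulin signalling, rose by 1.14 on the log2 scale, and Pparg, the nuclear receptor of fat cell differentiation, fell by 3.07. Adipocyte markers were near 0, with Adipoq, Plin1, Cfd and Lep at 3 counts or fewer in every library and a summed list level of at most 0.465 CPM.

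**Figure D5:**
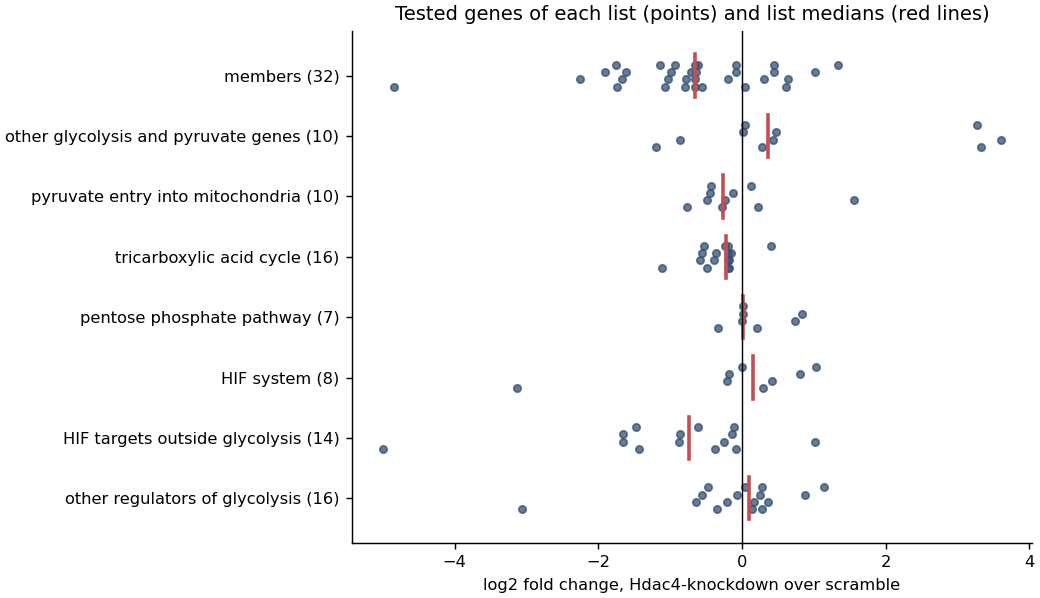
Log2 fold change (Hdac4 knockdown over scramble) of each tested gene of the members and of the 7 lists of neighbouring genes, with the median of each list marked. The members have a median of -0.65, the tricarboxylic acid cycle -0.22 and the HIF targets outside glycolysis -0.73, while the further glycolysis genes have 0.36.

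Markers of other cell types were low or moved only in part. Summed macrophage markers were at 1.60 to 2.59 CPM in scramble libraries and 2.69 to 3.13 CPM in knockdown libraries, with Adgre1 at 0 in all of them. Endothelial markers summed to 0.196 to 0.334 CPM and 2.49 to 2.82 CPM. Chondrocyte markers summed to 125 to 128 CPM and 169 to 186 CPM, of which 2 of 3 tested genes rose and Acan was at 0. Col2a1 rose from a mean of 0.827 CPM to 51.1 CPM, a log2 fold change of 5.93. Sox9, which held most of the sum, was at 126 and 127 CPM and was not called. Neuronal markers summed to 163 to 167 CPM and 73.4 to 83.8 CPM, nearly all of it Tubb3, with Snap25 at 0. Reads that fell outside annotated genes made up 3.17% to 3.41% of all reads in scramble libraries and 4.64% to 5.07% in knockdown libraries, and reads aligned to several places 4.61% to 4.77% and 3.88% to 4.15%. The part of these shifts in the levels of the glycolytic genes was not tested.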

How the data were processed

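RNA of 3 scramble and 3 Hdac4-knockdown samples of MC3T3-E1 cells was poly-A selected and sequenced as paired ends after a library kit that does not mark strand. For each sample the authors deposited raw counts per Ensembl gene, without normalization. The submitters' processing notes name FastQC, STAR 2.7.3a, HTSeq 0.12.4 and mm10. The annotation and the strand setting of the counting are not given in the sources used here, so reads of overlapping genes on opposite strands could not be told apart. Lines for reads without a gene were left out of library sizes. They held 3.17% to 5.07% (no feature), 5.84% to 6.51% (ambiguous) and 3.88% to 4.77% (several places) of all reads.

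Of 53801 identifiers, 53706 were matched to GENCODE M21 (GRCm38) for symbols, positions and exon lengths. Counts were compared in R 4.3.3 with edgeR 4.0.16 (TMM, default filterByExpr, and its quasi-likelihood test with group as the only term), and p-values were adjusted by Benjamini-Hochberg over 14531 genes. Genes with adjusted p below 0.05 and a log2 fold change beyond 0.05 were called, and the SE is the fold change divided by the square root of F. CPM are TMM-scaled, and TPM divide counts by the union of exons. Exact permutation tests were two-sided. Replicates of a group differed by more than sampling noise (chi-square per degree of freedom 3.38 to 9.15), and the biological coefficient of variation was 4.79%. Copies were genes sharing at least 100 stretches of 100 transcript bases with a member. The fit was also tested on simulated data.

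The members, the lists and the alternatives were chosen with earlier results of these data known. Every member is named. Values per library are given for members beyond a log2 fold change of 1 and for key genes of each step, and of each other list the called gene with the largest rise and fall among those with a mean of at least 100 counts. Car9, Slc2a6 and Slc2a8 were outside this rule and named after their values were seen. The replicate numbers come from the labels, which do not say that they pair the groups, and were not used in the fit. Alternatives were DESeq2 1.42.0, limma-voom (limma 3.58.1), other scalings and filters, fold change thresholds, a replicate block, leaving out each library, counts without length, and, chosen after seeing the data, adding the reads of copies. Figures were drawn with matplotlib 3.10.9.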

Additional observations from a re-analysis of the deposited data

How the results depend on the processing

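The counts of members called (21 lower, 7 higher) were the same or within 1.5 times under DESeq2, limma-voom, the other scalings and filters, the added copies and the omission of each library (21 to 22 lower throughout, and 7 higher except for 8 with library size alone and with upper quartile scaling). Raising the threshold to 0.5 left 4 higher, and raising it to 1 left 10 lower and 2 higher. With the replicate block, 21 members were lower and 7 higher and no member changed its call. Same-numbered samples did not deviate together (correlations -0.0111, 0.027 and 0.0166). Among single members, Gapdh went from 0.05 to -0.28 with the copies added and to 0.10 and 0.14, both called, with library size alone and upper quartile scaling, which shift all genes upward. Under upper quartile scaling Pdk4 was at 0.0051 and Pdha1 at 0.0034, neither called. Pdha1 was called with no filter (-0.11, adjusted p = 0.0321) and without Hdac4-knockdown replicate 2 (-0.12, adjusted p = 0.0123), and Aldoc without scramble replicate 1 (-1.21, adjusted p = 0.0424). The cause was not tested. With library size alone the list medians were -0.16 (tricarboxylic acid cycle), 0.0673 (pentose phosphate pathway), 0.21 (HIF system), -0.68 (HIF targets) and 0.15 (other regulators). With upper quartile scaling they were 0.45 (further glycolysis genes), -0.17 (pyruvate entry), -0.13, 0.10, 0.24, -0.65 and 0.18 in the same order. With no filter the further glycolysis genes, now with more genes at few counts, had 0.90, the tricarboxylic acid cycle -0.25 and the HIF system 0.12. At 10 counts or more in every library the medians were -0.18 (tricarboxylic acid cycle), 0.0480 (pentose phosphate pathway), 0.34 (HIF system), -0.57 (HIF targets) and 0.18 (other regulators). Leaving out single libraries gave -0.25 to -0.20 for the tricarboxylic acid cycle, 0.0040 to 0.0588 for the pentose phosphate pathway (0.0588 without scramble replicate 2), 0.14 to 0.24 for the HIF system (0.24 without Hdac4-knockdown replicate 2) and 0.0563 to 0.12 for the other regulators (0.0563 without scramble replicate 1). Without division by exon length, the share of the first-named paralog changed by -0.0606 (Slc2a1), 6.16 (Hk1), -20.9 (Pfkl), -0.879 (Pgam1), 12.5 (Eno1), -0.605 (Ldha), 26.9 (Slc16a1) and -30.6 (Pdk1) percentage points from scramble to knockdown. Depth limits Aldoc, Slc2a3 and Slc2a4.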
